A study of Mus musculus with 24 samples.

Results

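Pancreatic islets of BLKS mice (strain C57BLKs/J) fed a high-fat diet, 4 arrays, were set against islets of BL6 mice (strain C57BL6/J) fed the same diet, 4 arrays. These 8 arrays were taken by their titles from the 24 of the series, and every gene on them was compared. All mice were male and 8 weeks old when feeding began, and no transgene or engineered allele is named for either strain. Fat supplied 42% of the calories of the high-fat diet and 18% of those of chow. Feeding lasted 12 weeks by the sample labels and 16 weeks by the text of the series. The other 16 arrays came, 4 each, from both strains on chow and from both strains on the high-fat diet with pioglitazone, an insulin sensitiser that activates PPAR-gamma, at 140 mg per kg of diet. Islets were freed with collagenase and neutral protease, and their total RNA was labelled with Cy3 and hybridised to 1-colour Agilent arrays. The comparison asks which genes differ between islets of the strains when both are fed fat. Nothing in the labels says more than that the arrays are different mice, so p-values measure the spread between these mice and their preparations.

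Islets are small endocrine organs in which beta cells release insulin, alpha cells glucagon and delta cells somatostatin, among endothelial cells, macrophages, nerve fibres and remnants of acinar and ductal tissue. BLKS is an inbred strain related to BL6, best known as the background on which mutations of leptin signalling give severe diabetes. BL6 mice of the Jackson colony carry an inherited deletion inside Nnt, the mitochondrial transhydrogenase that makes NADPH. Immediate early genes such as Fos, Jun, Egr1 and Atf3 encode transcription factors that cells make within minutes of a stimulus or stress. NF-kappaB, a transcription factor released by cytokines and by injury, drives genes of chemokines and of its own inhibitors.

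Levels are given as log2 processed signal minus the array's 75th percentile, so that 0 is the level of that percentile and a difference of 1 is 2-fold. On the BL6 arrays 52.6% to 54.2% of spots were well above background, and on the BLKS arrays 53.5% to 56.6%. Hormone genes were well above background on all 8 arrays. BL6 mouse 4 and BLKS mouse 3 stood apart by their lymphocyte markers, whose mean level was 1.51 on each, against -3.29 to -2.26 on the other 6. The 4 BL6 arrays lay on one slide and the 4 BLKS arrays on another, so slide and strain cannot be told apart within this pair. A model of strain, diet and slide was fitted to all 24 arrays and is named below as the slide-adjusted model. It assumes that the strain difference is the same on every diet. As the groups lie on the slides, its strain term equals the difference on chow plus that with pioglitazone minus that on the high-fat diet. It therefore cannot check the high-fat calls, and its values below are description only. The dates of islet isolation and the RNA quality of single samples were not used here.

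Of 22986 genes tested in limma, 11464 differed between the strains on the high-fat diet at a Benjamini-Hochberg adjusted p under 0.05, which is 49.9%. BLKS islets were higher for 5340 (23.2%) and lower for 6124 (26.6%), and the median difference over all genes was -0.05. The 4 arrays of one strain lay beyond the 4 of the other for 9176 genes (39.9%). Calls of at least 2 on the log2 scale were fewer, 596 higher (2.59%) and 391 lower (1.7%), and at least 3 was reached by 211 (0.918%) and 91 (0.396%) genes. With BL6 mouse 4 and BLKS mouse 3 left out, 10274 genes were called. The slide-adjusted model called 4315, of which 3799 were also among the 11464.

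The genes furthest above BL6 in BLKS islets included stress transcription factors, cytokines and chemokines. Atf3, a stress-induced factor of the ATF family (probe at chr1:192994547-192994606, mm9), read -3.69, -3.05, -3.74 and -3.93 in BL6 mice 1 to 4 and 3.60, 4.11, 4.10 and 4.30 in BLKS mice 1 to 4. Its difference was 7.63 (SE 0.52, limma adjusted p = 3e-10), a 198-fold higher signal, with 3 of the 4 BL6 arrays well above background. Il6, the cytokine interleukin 6 (chr5:30346367-30346426), read -6.30, -5.75, -6.65 and -6.33 in BL6 and 1.28, 0.61, 2.31 and 0.59 in BLKS. No BL6 array measured Il6 above background, so its signal was at least 156-fold higher in BLKS (limma adjusted p = 3e-12). For such genes the fold is a lower bound, in which each dim array takes the higher of its lowest detected signal and the probe's own reading.

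The neutrophil-attracting chemokines Cxcl1 and Cxcl2 and the monocyte-attracting Ccl2 were in the same group. Cxcl1 read -6.37, -5.08, -6.70 and -6.38 in BL6 and 0.74, -0.81, 4.63 and -0.79 in BLKS, at least 117-fold higher (limma adjusted p = 4e-06). Its highest reading belonged to BLKS mouse 3, and the others of that strain were still above every BL6 mouse. Cxcl2 read -5.52, -6.35, -5.51 and -6.24 against 0.18, 0.06, 0.20 and -0.63, at least 52.7-fold higher (limma adjusted p = 1.1e-11). Ccl2 was measured on every array, at -2.49, -2.34, -4.16 and -3.29 in BL6 and 3.17, 1.88, 4.31 and 1.19 in BLKS, and was 52.3-fold higher (limma adjusted p = 2.7e-06). None of these groups overlapped, while the spread within BLKS was wide (SD 2.56 for Cxcl1 and 1.39 for Ccl2).

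Egr4, a zinc-finger factor of the Egr family, read -6.14, -6.35, -6.35 and -6.16 in BL6, all not well above background, and 0.53, -0.66, -0.27 and -0.67 in BLKS, at least 58.2-fold higher. Fosb, an AP-1 subunit, read -0.90, -0.59, -1.02 and -1.22 against 4.52, 4.59, 5.12 and 5.36, 56.9-fold higher. Fosl1, another AP-1 subunit, read -4.26, -4.76, -4.67 and -5.05 against 0.84, 0.26, 0.66 and 0.48, at least 37.9-fold higher. Every BLKS mouse was far above every BL6 mouse for all 3. Fam71a, whose probe (chr1:192986463-192986522) lies on the same stretch of chromosome 1 as that of Atf3, read -6.38, -6.53, -6.71 and -6.40 against -1.33, -0.17, -0.70 and -0.79, at least 46.1-fold higher. Niacr1 (now Hcar2), the niacin receptor, was well above background on 2 BL6 arrays and read -6.28, -3.67, -2.83 and -4.42 against 1.20, 1.33, 1.03 and 1.69. Its BLKS readings were close together and its BL6 readings were not (SD 0.28 and 1.47).

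**Figure D1:**
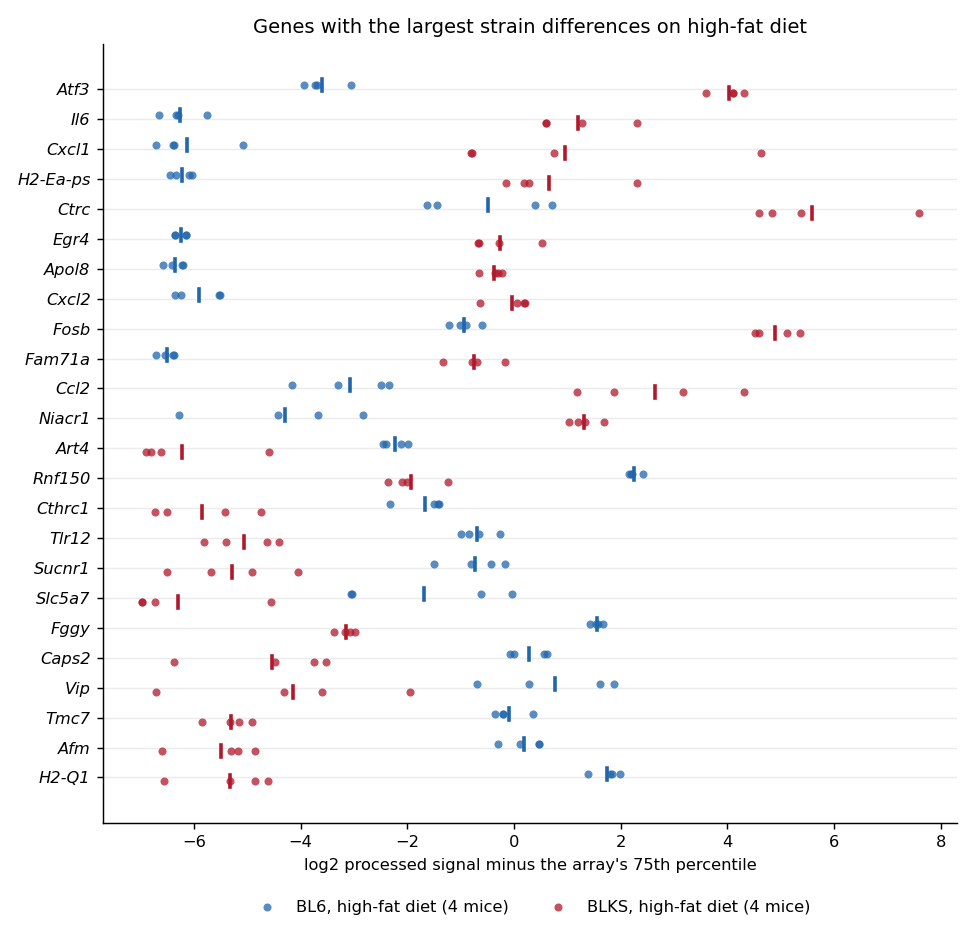
Level of the 12 named genes with the highest and the 12 with the lowest strain difference in each of the 4 BL6 mice (blue points) and 4 BLKS mice (red points) on the high-fat diet; the x axis is log2 processed signal minus the array's 75th percentile, and vertical marks are group means. Points of the strains do not overlap for any of the 24 genes, which the choice of genes required.

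The 12 genes highest in BLKS also held an MHC gene, an apolipoprotein gene and an acinar protease gene. H2-Ea-ps, the class II alpha gene of the E molecule, which mice of the b haplotype cannot express (chr17:34481469-34481528), read -6.10, -6.33, -6.46 and -6.04 in BL6 and -0.16, 0.19, 2.31 and 0.28 in BLKS, at least 111-fold higher. Apol8, an apolipoprotein L gene, read -6.20, -6.41, -6.58 and -6.22 against -0.65, -0.29, -0.23 and -0.36, with a spread of 0.18 and 0.19 (SD) and 2 BL6 arrays well above background. Ctrc, the acinar protease chymotrypsin C, read 0.39, -1.45, 0.71 and -1.64 against 5.38, 4.83, 7.58 and 4.59 (difference 6.09, SE 1.56, limma adjusted p = 0.0029). Ctrc was the only one of 25 acinar markers called higher. In the slide-adjusted model Ctrc differed by 3.91 (limma adjusted p = 0.38), whereas Apol8 (5.71) and H2-Ea-ps (6.60) were called.

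On the other side stood genes whose signal was bright in BL6 and at background in BLKS. H2-Q1, a class I-like gene of the major histocompatibility complex (chr17:35461859-35461918), read 1.84, 1.98, 1.80 and 1.39 in BL6 and -4.84, -4.60, -6.55 and -5.33 in BLKS, at least 136-fold lower (limma adjusted p = 2.7e-12). Afm, the vitamin E-binding plasma protein afamin (chr5:90982490-90982549), read 0.48, -0.31, 0.47 and 0.10 against -6.60, -5.18, -4.85 and -5.30, at least 50.1-fold lower. Tmc7, a member of the transmembrane channel-like family (chr7:125679512-125679571), read -0.20, -0.20, 0.36 and -0.35 against -4.90, -5.16, -5.32 and -5.84, at least 37.0-fold lower. No BLKS array was well above background for these 3. A 60-base probe reads a strain's sequence as well as its RNA level, which was not tested; the first 30 bases of the probes behind these on and off signals, 5′ to 3′, are shown because each difference rests on the one sequence.
H2-Ea-ps probe: tgtttgactttgacggcgatgagattttcc
H2-Q1 probe: attcactgaacacatctttacagagttgta
Afm probe: agaatggaatagaaggtttttccgtaaccc
Tmc7 probe: actgcagttagaggaagtagcattttgaca

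Fggy, a carbohydrate kinase, was tight within each strain, at 1.53, 1.67, 1.58 and 1.43 in BL6 and -3.17, -3.37, -2.98 and -3.07 in BLKS, 26.0-fold lower. Rnf150, a ring-finger protein, read 2.41, 2.22, 2.15 and 2.19 against -2.0, -2.11, -1.23 and -2.35, 17.9-fold lower. Both were measured on all 8 arrays. Sucnr1, the succinate receptor, read -0.17, -0.44, -1.50 and -0.80 against -6.50, -5.68, -4.05 and -4.91, and was well above background in 1 BLKS mouse. Caps2, a calcium-binding protein, read 0.63, -0.01, 0.57 and -0.08 against -4.48, -6.38, -3.74 and -3.52. Tlr12, a Toll-like receptor, read -0.99, -0.85, -0.66 and -0.27 against -5.39, -4.41, -4.62 and -5.82, at least 20.7-fold lower, and Cthrc1, a secreted collagen-associated protein, was at least 17.0-fold lower (-1.43, -1.41, -1.50 and -2.32 against -5.41, -4.75, -6.51 and -6.73). Art4, a surface ADP-ribosyltransferase homologue, read -2.45, -2.40, -1.98 and -2.11 against -6.62, -6.81, -4.58 and -6.90, at least 14.0-fold lower. In the slide-adjusted model Cthrc1 (-1.85) and Art4 (-2.44) were not called in limma (adjusted p = 0.12 and 0.05). The other 5 genes of this paragraph were.

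Some signals seen in one strain alone belonged to transcripts without a gene symbol. Of the 22986 genes tested, 301 were well above background in all 4 BLKS mice and in no BL6 mouse by any probe. The opposite pattern was shown by 110. Of these, 131 and 54 had the same pattern on chow. The pattern is lost when 1 array crosses the background limit, so these counts do not measure a difference between the diets. No gene was called for such a difference in limma. 5830417I10Rik read 1.50, 1.52, 1.55 and 1.47 in BL6 and -6.73, -6.92, -6.98 and -6.98 in BLKS, at least 277-fold lower. LOC100503215 read 2.20, 0.43, 1.79 and 1.59 against -6.62, -5.97, -4.75 and -6.89, at least 169-fold lower, and 2610507I01Rik was at least 41.4-fold lower. The SDs of 5830417I10Rik were 0.03 and 0.12, against a difference of -8.41.

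Nnt, the gene with the inherited deletion in BL6, was lower in BL6 islets. Its brightest probe (chr13:120124335-120124394) read 2.41, 2.71, 2.61 and 2.21 in BL6 and 3.72, 3.73, 3.48 and 3.65 in BLKS, a difference of 1.16 (SE 0.12, limma adjusted p = 7.7e-08). A dimmer probe (chr13:120123318-120123377) was well above background on no BL6 array and on 4 BLKS arrays, with a difference of 2.75, and the dimmest (chr13:120142585-120142644) differed by 0.57 with no call. Whether any of the 3 lies inside the inherited deletion was not determined here, so their first 30 bases are given.
Nnt probe, brightest: gtattaagtgcgcttgaatggaatgcaacc
Nnt probe, dimmer: gagacatttttgggtttcagaactggcaga
Nnt probe, dimmest: ggagggaccaacattgttctgatgtggagg
The other probes of called genes numbered 5318, of which 81.7% had the same sign and 6.79% were called in the opposite direction. For genes called with at least 2 on the log2 scale, 94% of 300 other probes had the same sign.

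Of all the gene lists, the immediate early and activity genes had the highest median difference. Of 26 measured, 24 were called higher in BLKS and 0 lower, against 23.2% and 26.6% of all genes, with a median difference of 3.15. The mean level of the list was -0.29, -0.19, -0.66 and -0.31 in the BL6 mice and 3.04, 2.78, 3.11 and 2.83 in the BLKS mice. Fos read 0.27, 0.88, -0.96 and -1.24 against 5.41, 4.71, 5.14 and 4.77, 38.6-fold higher (limma adjusted p = 6.5e-08). Egr1 read 1.21, 1.39, 0.30 and 0.15 against 6.40, 5.67, 5.94 and 5.71, 35.9-fold higher. Jund (3.27), Fosb (5.83), the early response gene Ier3 (3.70) and the feedback phosphatase gene Dusp1 (3.65) had the smallest p-values of the list. Klf2 (-0.29) and Dusp2 (2.79, limma adjusted p = 0.076) were not called. The same count, 24 of 26, was called higher on chow and with pioglitazone, and 21 in the slide-adjusted model, where the median was 2.92.

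Inflammatory genes and chemokines came next, with 21 of 31 called higher and 1 lower, Relb, a subunit of NF-kappaB (-0.44). Of all genes 23.2% were higher and 26.6% lower. The median difference of the list was 2.08. The mean level of the list was -2.22, -2.16, -2.51 and -1.59 in BL6 and 0.02, 0.05, 1.16 and -0.08 in BLKS, highest in each strain on the array with high lymphocyte markers. Among the members, 6 members were above background on no BL6 array against 1 on no BLKS array. Ptgs2, which encodes the inducible cyclooxygenase, was 37.6-fold higher with 2 BL6 arrays above background. Its BL6 readings (-6.28, -6.49, -6.64 and -6.21) were as low as those of Il6, so this fold rests on readings near the floor. Socs3, the feedback inhibitor of cytokine receptors, was 11.1-fold higher. Tnf read -6.14, -5.96, -6.06 and -3.87 against -1.46, -1.54, -0.28 and -1.15, the highest BL6 reading being that of mouse 4. Cxcl10, Nos2, Il1r1 and Cxcl12 were among the 9 members not called, and Ccl5 (-0.82) and Ccl8 (-2.18) had negative differences without a call. Without BL6 mouse 4 and BLKS mouse 3 the count was 21 higher and 0 lower, and in the slide-adjusted model it was 14 and 0.

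**Figure D2:**
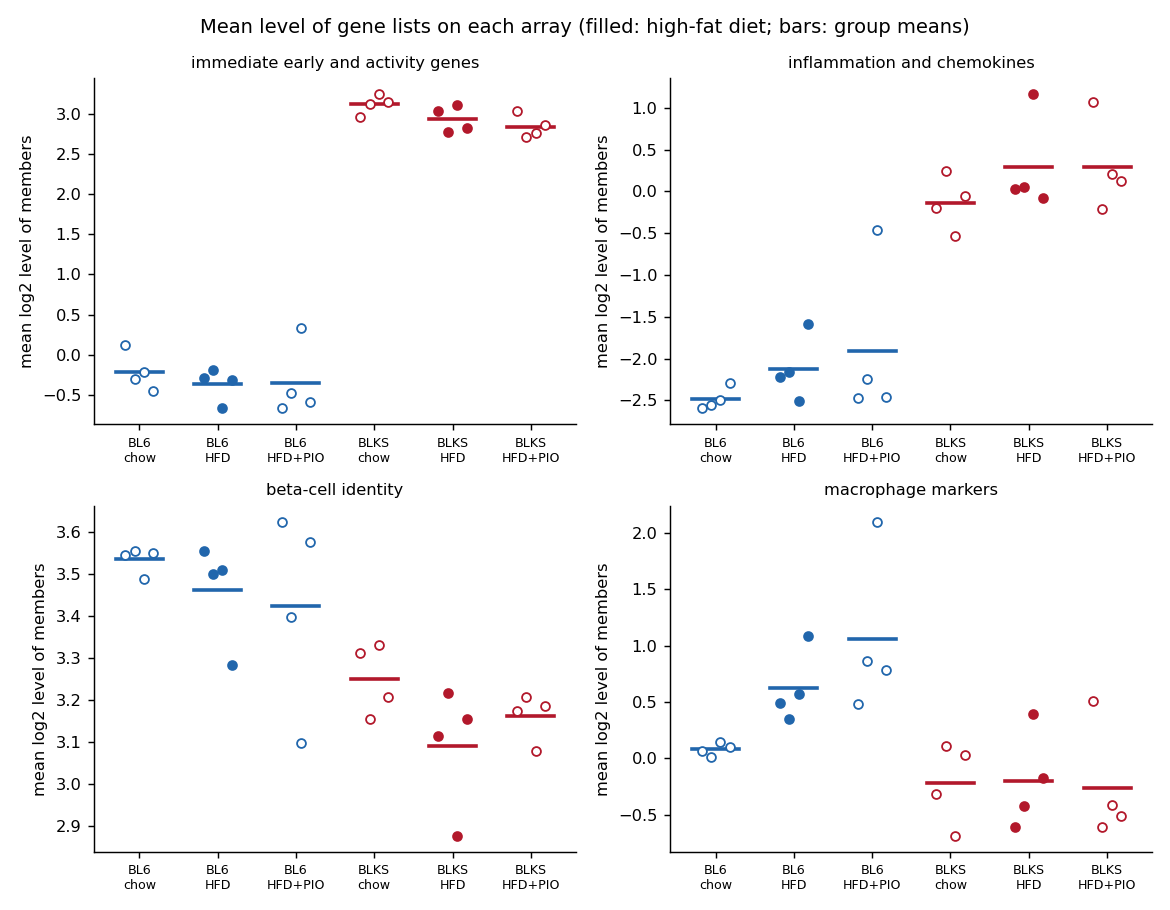
Mean log2 level of the measured members of 4 gene lists on each of the 24 arrays (y axes), by strain and diet (x axis; BL6 blue, BLKS red; filled points high-fat diet, open points chow or high-fat diet with pioglitazone; bars are group means of 4 arrays). The immediate early list lies between -0.66 and -0.19 in BL6 and between 2.78 and 3.11 in BLKS on the high-fat diet, and the points of the strains do not overlap for this list on any diet.

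Because these genes stood together, the 250 bases upstream of their start sites were searched for known binding motifs, on both strands, in RefSeq sequence (GRCm38.p6) of 27025 promoters. GGG and TTCC with any 3 bases between them, the core of NF-kappaB sites, were present in 4.6% of all promoters. Among the inflammatory genes called higher, 14 had a promoter in the table and 6 of them (42.9%) held it: Cxcl1, Cxcl2, Il6, Nfkb2, Nfkbia and Tnfaip3. TGANTCA, the AP-1 core, was present in 6.87% of all and in 3 of the 14. Of 20 immediate early genes with a promoter, 0 held either of these letters. TGACGTCA, the palindromic cAMP response element, was in 2 of the 20, Btg2 and Dusp1, and in 1.62% of all, and the CArG box of serum response factor was in none of the 34 and in 1.4% of all. A match describes letters in this window and is not evidence of binding. The inflammatory list was written with NF-kappaB subunits, its inhibitors and chemokines in it. Its share of matches therefore describes the choice of the list and says nothing of the strain difference. The share among members not called higher is not given. The promoters of the 3 cytokine genes with the highest fold are printed with matches to the NF-kappaB core or TGANTCA in capitals, as read on the strand of the gene, for Il6 (chr5:30012864-30013113), Cxcl1 (chr5:90890995-90891244) and Cxcl2 (chr5:90903649-90903898), all on the plus strand.
Il6: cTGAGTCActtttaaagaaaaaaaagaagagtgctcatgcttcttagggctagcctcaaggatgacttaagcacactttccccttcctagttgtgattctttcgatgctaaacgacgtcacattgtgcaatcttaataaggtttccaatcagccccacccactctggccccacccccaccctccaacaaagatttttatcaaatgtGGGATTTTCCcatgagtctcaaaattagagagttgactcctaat
Cxcl1: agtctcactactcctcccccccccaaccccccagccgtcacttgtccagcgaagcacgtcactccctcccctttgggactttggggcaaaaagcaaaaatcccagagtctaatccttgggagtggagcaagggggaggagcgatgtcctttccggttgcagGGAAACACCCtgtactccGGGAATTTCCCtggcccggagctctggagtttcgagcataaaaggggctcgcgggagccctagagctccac
Cxcl2: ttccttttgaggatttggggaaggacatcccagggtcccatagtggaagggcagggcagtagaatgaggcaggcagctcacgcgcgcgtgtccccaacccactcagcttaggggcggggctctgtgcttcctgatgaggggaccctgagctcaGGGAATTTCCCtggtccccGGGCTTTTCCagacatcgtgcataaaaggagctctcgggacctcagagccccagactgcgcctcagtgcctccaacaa

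Circadian clock genes were higher in BLKS for 14 of 19 and lower for 0, against 23.2% and 26.6% of all genes. Their median difference was 1.19. Nr1d1, which encodes the repressor REV-ERB alpha, read -0.68, -1.08, -1.15 and -0.81 against 3.92, 4.29, 3.64 and 4.41, 31.9-fold higher (limma adjusted p = 8.9e-11). Bhlhe40 (3.48), Nfil3 (2.30), Dbp (2.44), Per1 (1.26) and Per2 (1.19) were higher too. Clock (-0.27) and Arntl (-0.20), the activators of the loop, were not called. The slide-adjusted model called 13 higher. The time of day of islet isolation is not given in the labels.

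Of 41 chaperones and unfolded protein response genes of the endoplasmic reticulum, 16 were higher and 4 lower, against 23.2% and 26.6% of all genes, with a median of 0.20. Ppp1r15a, the stress-induced phosphatase subunit GADD34, read 3.19, 3.47, 3.27 and 3.01 against 6.76, 6.53, 6.41 and 6.51, 9.99-fold higher (limma adjusted p = 6.2e-15). Trib3 (2.45), Ddit3, which encodes CHOP (1.86), Herpud1 (1.12) and the chaperone gene Hspa5 (0.83) were higher. Other chaperones, Calr (0.00), Canx (-0.07), Pdia4 (-0.15) and P4hb (-0.20), were not called, and Dnajc3 (-1.08) was lower. Atp2a2, the calcium pump SERCA2, read 4.88, 4.99, 4.90 and 4.75 against 5.03, 5.01, 4.56 and 4.84 and did not pass the test (-0.02).

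Oxidative stress genes showed Hmox1, the haem oxygenase, 10.4-fold higher and the metallothioneins Mt1 (1.46) and Mt2 (2.63) higher in BLKS. The wider list of glutathione and detoxification enzymes was even, with 13 of 52 higher and 14 lower. Glo1, the glyoxalase, read 3.00, 3.16, 2.96 and 2.75 against 4.03, 4.05, 3.74 and 3.87 (difference 0.96, limma adjusted p = 4.7e-08). Of 24 NADPH and redox enzymes 9 were higher, Txnrd3 (1.51), Nnt and Glud1 (0.59) among them, and 6 lower, led by Pgls (-1.0). In the apoptosis list 13 of 30 were higher and 6 lower. Of the glutathione, NADPH and apoptosis lists 51.9%, 62.5% and 63.3% were called either way, against 49.9% of all genes. The p53 and stress targets Tnfrsf10b (1.84) and Pmaip1 (2.40) and the inhibitor gene Birc3 (2.93) were higher, while Casp9, the initiator caspase, read 1.52, 1.56, 1.46 and 1.57 against -1.12, -1.32, -0.62 and -0.57, 5.42-fold lower.

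The insulin, glucagon, somatostatin and pancreatic polypeptide genes were not called. Ins1 read 10.12, 10.23, 9.92 and 9.94 in BL6 and 10.12, 10.05, 9.65 and 9.67 in BLKS (-0.18, SE 0.16, limma adjusted p = 0.37), and Ins2 differed by -0.21 (SE 0.15). Gcg (-0.16, SE 0.14), Sst (0.15, SE 0.14) and Ppy (-0.14, SE 0.46) were not called either, whereas Pyy, the peptide YY gene, was lower (-0.84, limma adjusted p = 0.02). Of 21 genes of hormones and prohormone processing, 2 were higher and 8 lower with a median of -0.23. Called either way were 47.6% of these 21, against 49.9% of all genes. Vgf, the precursor of the VGF peptides, read 2.83, 3.42, 3.48 and 2.95 against 6.30, 5.87, 5.40 and 5.97, 6.57-fold higher. The processing genes Pcsk1 (-0.50), Pcsk2 (-0.40), Cpe (-0.32) and Scg5 (-0.52) were lower. On chow 1 was higher and 0 lower, and in the slide-adjusted model 1 and 0.

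Genes of beta-cell identity were lower in BLKS for 14 of 26 and higher for 5, against 26.6% and 23.2% of all genes. Their median difference was -0.39. The transcription factor Rfx6 read 3.19, 3.11, 3.32 and 3.11 against 1.49, 1.62, 1.46 and 1.77 (-1.60, limma adjusted p = 5.9e-09). Foxa2 (-1.57), the GLP-1 receptor gene Glp1r (-1.54, brightest probe) and the fatty acid receptor gene Ffar1 (-1.77) were lower to a like extent. A dimmer Glp1r probe (chr17:31073256-31073315) overlaps the brightest (chr17:31073261-31073320) and was well above background on 4 BL6 and 4 BLKS arrays. It differed by -0.14 without a call (limma adjusted p = 0.57), so the lower Glp1r signal rests on the brightest probe alone. Slc2a2, the glucose transporter GLUT2, read 5.72, 5.78, 5.58 and 5.39 against 5.14, 5.32, 5.01 and 5.41 (-0.40, limma adjusted p = 0.016), with BLKS mouse 4 inside the BL6 range. Pdx1 read 1.30, 1.58, 1.50 and 1.10 against 1.80, 1.53, 1.38 and 1.54 and Mafa 3.12, 3.26, 3.46 and 3.08 against 3.17, 3.40, 2.79 and 3.17, neither called. Hnf4a (1.53), Neurod1 (0.65) and Pax6 (0.55) were higher. The slide-adjusted model called 1 higher and 7 lower. In it Rfx6 (-1.57), Foxa2 (-1.11), Glp1r (-1.0) and Ffar1 (-1.56) were called and Slc2a2 (0.14) and Hnf4a (0.00) were not.

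Alpha-cell markers were lower for 6 of 10 and higher for 1, against 26.6% and 23.2% of all genes. Dpp4, the peptidase that cleaves GLP-1, was 3.20-fold lower, and Ttr (-0.97), Gc (-0.74) and Irx2 (-0.65) were lower. In whole islets fewer cells of a type and less RNA per cell cannot be told apart. Of 34 receptors and insulin signalling genes 6 were higher, with Irs2 (1.51) among them, and 13 lower, with Gpr119 (-1.76), Lepr (-0.60) and Insr (-0.38). Called either way were 55.9% of the 34, against 49.9% of all genes. The epsilon-cell hormone gene Ghrl read 2.81, 0.49, 0.08 and 2.97 against -0.68, -0.51, -0.94 and -0.65 (-2.28, limma adjusted p = 0.021). Without BL6 mouse 4 and BLKS mouse 3 its difference was -1.74 and not called (limma adjusted p = 0.13).

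**Figure D3:**
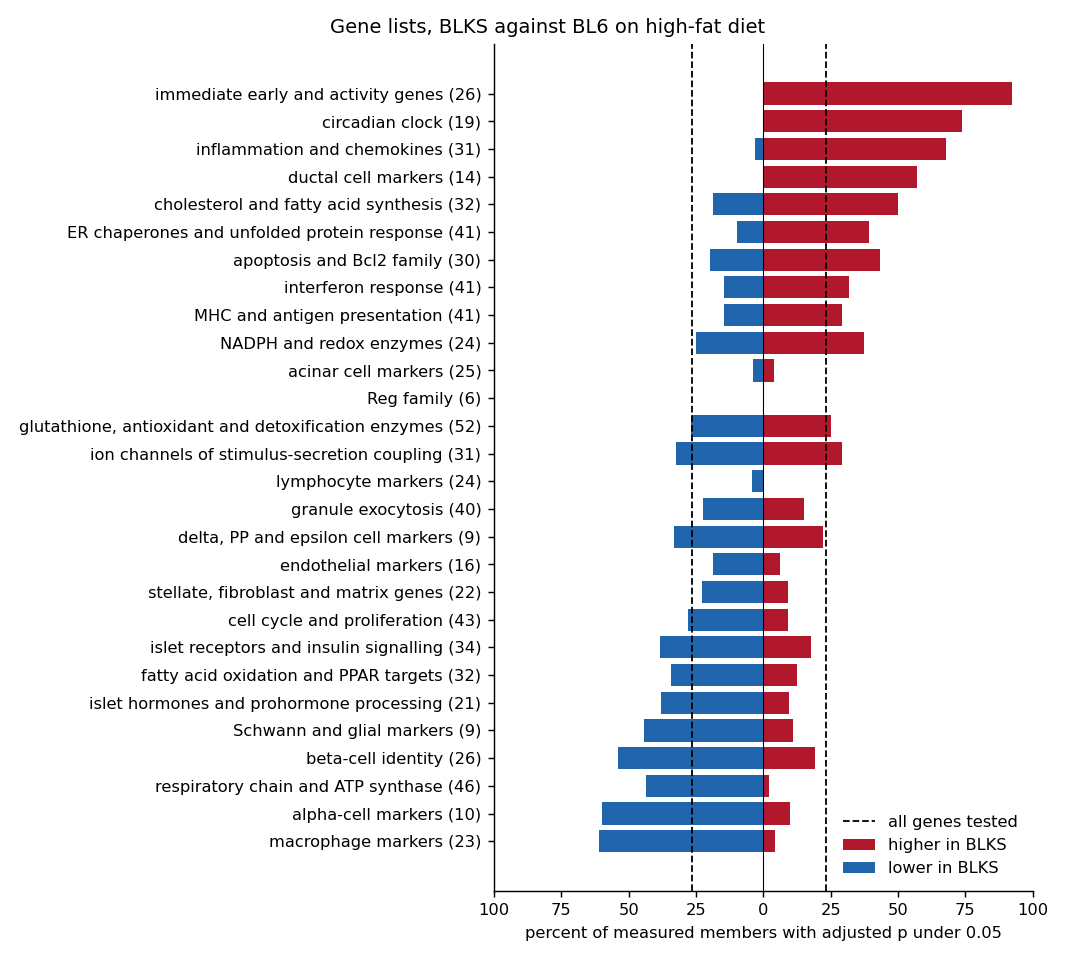
Percent of the measured members of each gene list (number in brackets) called higher (red, to the right) or lower (blue, to the left) in BLKS islets on the high-fat diet at an adjusted p under 0.05; dashed lines mark the 23.2% and 26.6% of all genes tested. Immediate early, circadian, inflammatory and ductal lists reach furthest to the right, and macrophage, alpha-cell, beta-cell and Schwann cell lists furthest to the left.

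Secretion genes were mixed. Of 40 exocytosis genes 6 were higher and 9 lower, with Sytl2 (2.90) and Stx3 (1.46) among the higher and the vesicle GTPase gene Rab3a (-1.34) and the priming factor gene Cadps (-1.17) among the lower. In the slide-adjusted model Sytl2 (0.79) and Rab3a (-0.62) were not called. Of 31 channel genes 9 were higher and 10 lower. Called either way were 37.5% of the exocytosis genes and 61.3% of the channel genes, against 49.9% of all genes. Within the ATP-sensitive potassium channel, the pore gene Kcnj11 was higher (0.59) and the sulfonylurea receptor gene Abcc8 lower (-0.44). All 3 inositol trisphosphate receptor genes were lower, Itpr2 by the most (-1.76), with Itpr3 at -0.73 and Itpr1 at -0.49.

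The list of sterol and fatty acid synthesis genes held 16 of 32 members higher and 6 lower, with a median of 0.57. The sterol genes among those higher included Fdps (1.23), Fdft1 (1.22), Srebf2 (1.12) and Hsd17b7 (1.09), while the sterol reductase gene Tm7sf2 was lower (-1.05, and -0.43 without a call in the slide-adjusted model). The fatty acid synthesis genes Fasn (-0.74), Acacb (-0.82), Acly (-0.53) and Srebf1 (-0.67) were lower. Among PPAR targets and oxidation genes, 4 of 32 were higher and 11 lower. Called either way were 68.8% of the synthesis list and 46.9% of this one, against 49.9% of all genes. Pparg read 1.80, 2.06, 1.86 and 1.48 against 3.22, 2.72, 2.49 and 2.66 (0.98, limma adjusted p = 2.2e-05). Cidea, a lipid droplet protein, was 8.49-fold higher, the retinol-binding Rbp7 6.29-fold lower, and the oxidation enzymes Cpt2 (-1.11) and Acadl (-1.03) lower.

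Respiratory chain and ATP synthase genes had small differences mostly on one side, with a median of -0.21. Of 46 measured, 20 were lower and 1 higher, against 26.6% and 23.2% of all genes. Together 45.7% of the 46 were called, against 49.9% of all genes. Ndufa4 (-0.84), Cox7a1 (-1.14), Cox5b (-0.57) and Ndufs1 (-0.38) had the smallest p-values. The count was 14 lower without BL6 mouse 4 and BLKS mouse 3, 5 lower on chow and 1 in the slide-adjusted model. Of 43 cell cycle genes 4 were higher and 12 lower, against 23.2% and 26.6% of all genes. The lower count was near that share and the higher count below it, with a median of -0.58. Cdkn1a, the p53 target p21, was 3.24-fold higher and Cdkn2c 2.14-fold lower. Mki67, the proliferation marker, read -0.70, 0.32, 0.32 and 1.63 against -2.01, -1.54, 1.86 and -1.12 and was not called. Its highest reading in each strain was on the array with high lymphocyte markers. Without those 2 arrays 17 of the 43 cell cycle genes were lower, beside 5417 of all 22986 genes.

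Ductal markers were higher for 8 of 14 and lower for 0, against 23.2% and 26.6% of all genes. Their median difference was 1.26. The simple-epithelial keratin genes Krt8 and Krt18 were 11.8-fold and 3.89-fold higher. Krt8 read 4.37, 4.76, 4.59 and 4.16 against 8.37, 7.84, 8.00 and 7.94. Sox9 (at least 7.56-fold), Krt19 (4.82), Cldn4 (2.76), Spp1 (2.40) and Epcam (1.11) were higher as well. The ductal genes Krt7 (0.01), Cftr (0.37) and Tff2 (-0.05) were not called and were well above background on all 8 arrays. The slide-adjusted model called 7 of the 14 higher, with Krt8 at 3.24.

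Macrophage markers ran the other way, lower for 14 of 23 and higher for 1, against 26.6% and 23.2% of all genes. Their median difference was -0.80. Cx3cr1, the fractalkine receptor, read 0.69, 0.57, 1.06 and 1.01 against -2.40, -2.28, -1.67 and -1.89, 7.43-fold lower (limma adjusted p = 3.9e-09). Fcgr1, Mrc1 and Ccr2 were well above background on no BLKS array and were at least 5.02-fold, 7.31-fold and 6.21-fold lower. Cd14, the co-receptor for lipopolysaccharide, was 12.2-fold higher (-2.22, -1.53, -1.89 and -1.75 against 1.64, 1.90, 2.08 and 1.44). Csf1r (-0.36), Cd68 (0.49) and Lyz2 (0.60) were not called. The mean level of the list was 0.35 to 1.08 in BL6 and -0.61 to 0.40 in BLKS, whose highest value was mouse 3. The slide-adjusted model called 1 higher and 2 lower, with Cx3cr1 at -3.09 (limma adjusted p = 1e-05).

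Among genes of antigen presentation the class I genes differed in both directions. Of 41 measured, 12 were higher and 6 lower, against 23.2% and 26.6% of all genes. Class I H2-K1 was lower (-0.84) and H2-D1 higher (0.67), and H2-T23 (0.97) and H2-K2 (1.22) were higher. Class II H2-Aa was lower (-1.87) and H2-Ab1 (-0.15) and H2-Eb1 (0.02) were not called. Whether the H2 probes of this paragraph read a strain's sequence or its RNA level was not tested. Interferon response genes were higher for 13 of 41 and lower for 6, near the 23.2% of all genes for the first. Oasl1 (2.84), Gbp3 (2.56) and Ddx58, the RNA sensor RIG-I (1.66), were higher, whereas Ifi44 (-0.94) and Bst2 (-1.24) were lower.

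Of 24 lymphocyte markers only Cd3e was called (-0.82), which is 4.17% of the list against 49.9% of all genes. Cd3e read 3.1, 3.1, 2.9 and 3.3 in BL6 mice 1 to 4 and 2.1, 2.5, 2.2 and 2.3 in BLKS mice 1 to 4. Unlike the mean of the list, it did not set BL6 mouse 4 and BLKS mouse 3 apart. What its probe reads was not tested, so its call is not given as a difference in lymphocytes. In the slide-adjusted model Cd3e was not called (-0.10). Endothelial genes were called for 4 of 16, 1 higher (Cdh5, 1.22) and 3 lower (Emcn, -0.75, with Kdr and Ly6c1). The slide-adjusted model called 1 higher and 0 lower. For Kdr a dimmer probe, well above background on all 8 arrays, was not called (-0.24, limma adjusted p = 0.22). Of 22 stellate, fibroblast and matrix genes 2 were higher and 5 lower. In the list of delta, PP and epsilon markers 2 of 9 were higher and 3 lower. Of the endothelial, matrix and delta lists 25%, 31.8% and 55.6% were called either way, against 49.9% of all genes. Of 6 Reg genes 0 were called, with limma adjusted p of 0.33 to 0.8 for the 4 of smallest p, and SEs from 1.37 to 2.34. The acinar list was 1 higher and 1 lower of 25, which is 8% against 49.9% of all genes. Its mean level overlapped, 2.88 to 5.54 in BL6 and 3.95 to 6.79 in BLKS.

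Some neural genes were lower in BLKS islets on this diet. Vip, the vasoactive intestinal peptide gene, read 1.88, -0.69, 1.62 and 0.28 in BL6 and -6.71, -1.94, -4.31 and -3.59 in BLKS (-4.91, SE 1.36, limma adjusted p = 0.0051). Slc5a7, the choline transporter of cholinergic neurons, read -0.04, -3.03, -0.62 and -3.04 against -6.72, -4.55, -6.97 and -6.97 (-4.62, limma adjusted p = 0.00056). Prompted by these, a list of neuron genes was put together after the values were seen, so its count supports nothing: 10 of 17 were lower and 1 higher. Stmn2 (-3.56), Prph (-3.62) and the neurofilament gene Nefl (-3.32) were lower, the neurofilament gene Nefm was higher (1.14), and Th, Chat, Tubb3, Elavl4, Uchl1 and Gap43 were not called. Of 9 Schwann and glial markers 4 were lower, Sox10 (-2.24) and S100b (-1.79) among them, and 1, Mbp (1.53, brightest probe), higher. Of the dimmer Mbp probes, one was called higher (1.63) and another was not (0.33, limma adjusted p = 0.24). Called either way were 55.6% of the 9, against 49.9% of all genes. BL6 mice 1 and 3 read higher than mice 2 and 4 for Vip, Slc5a7, Stmn2, Prph and Nefl.
With pioglitazone, 6 of the 17 were higher in BLKS and 1 lower, and Vip differed by 1.23. The difference between the diets did not pass the test in limma for Vip (adjusted p = 0.35) or Stmn2 (adjusted p = 0.21). In the slide-adjusted model Vip (2.84, limma adjusted p = 0.41) and Slc5a7 (3.77, limma adjusted p = 0.12) had the opposite sign without a call. The high-fat difference enters that model with a minus sign, so this says nothing of their direction on the high-fat diet. Slide and strain cannot be told apart for these genes either.

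**Figure D4:**
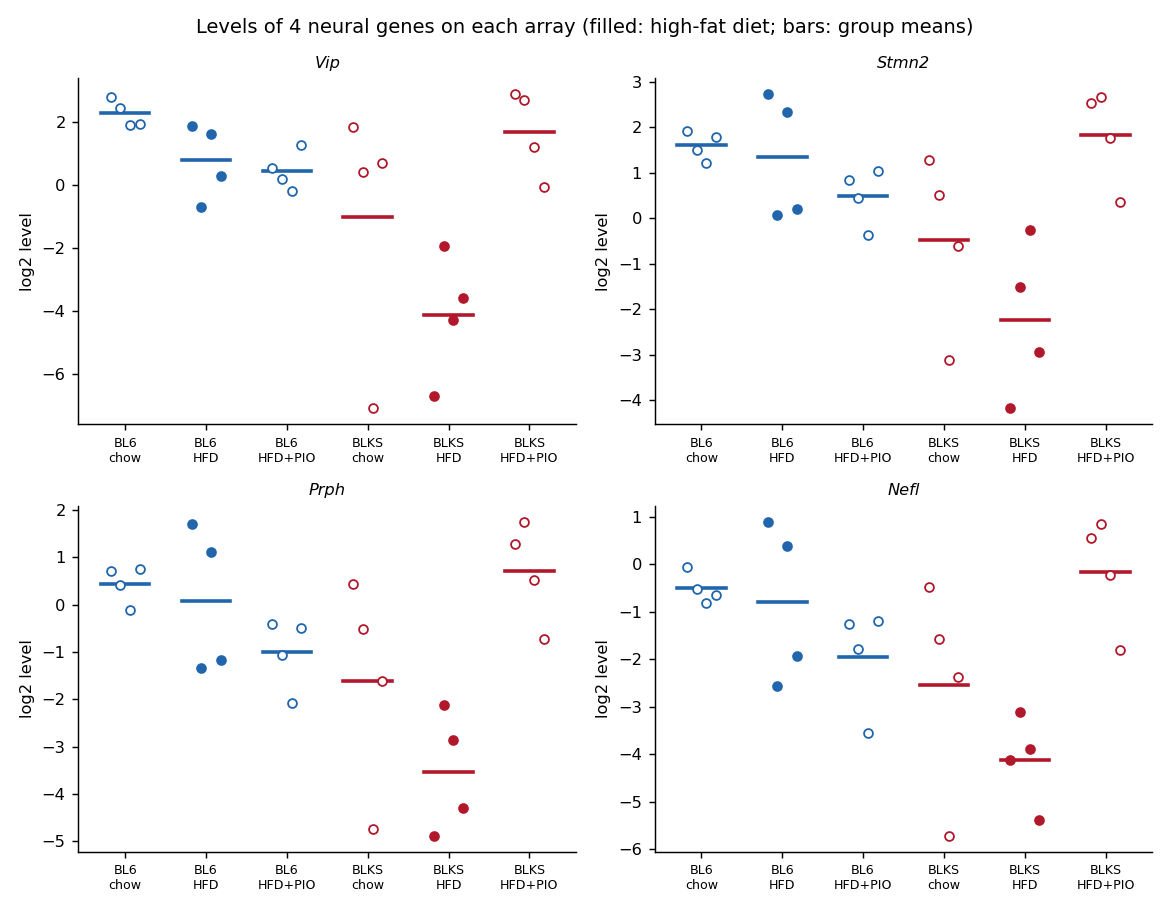
Log2 level (y axes) of 4 neural genes, picked among those lower in BLKS on the high-fat diet, on each of the 24 arrays by strain and diet (x axis; BL6 blue, BLKS red; filled points high-fat diet; bars are group means of 4 arrays). On the high-fat diet the BLKS points lie below all BL6 points for each gene (Vip -6.71 to -1.94 against -0.69 to 1.88), while with pioglitazone the BLKS mean is above the BL6 mean for each gene.

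The strain differences on the high-fat diet were set beside those on chow, which come from other mice. The BL6 chow arrays lay on the same slide as the BL6 high-fat arrays, and the BLKS arrays with pioglitazone on that of the BLKS high-fat arrays, so the comparisons share slides. On chow 9546 genes were called (41.5%). Called on both diets were 8008, which is 69.9% of the high-fat calls and 83.9% of the chow calls, and 7997 had the same direction. Of the 3456 genes called on the high-fat diet alone, 3144 had the same sign on chow. Across all genes the differences on the 2 diets correlated with Pearson's r of 0.88 and Spearman's rho of 0.83, genes not being independent replicates. With pioglitazone 10519 genes were called (45.8%), and 7129 genes were called on all 3 diets, 7127 of them in one direction. Atf3 differed by 8.02 on chow, Il6 by 6.80, H2-Q1 by -7.56 and Afm by -5.58.

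**Figure D5:**
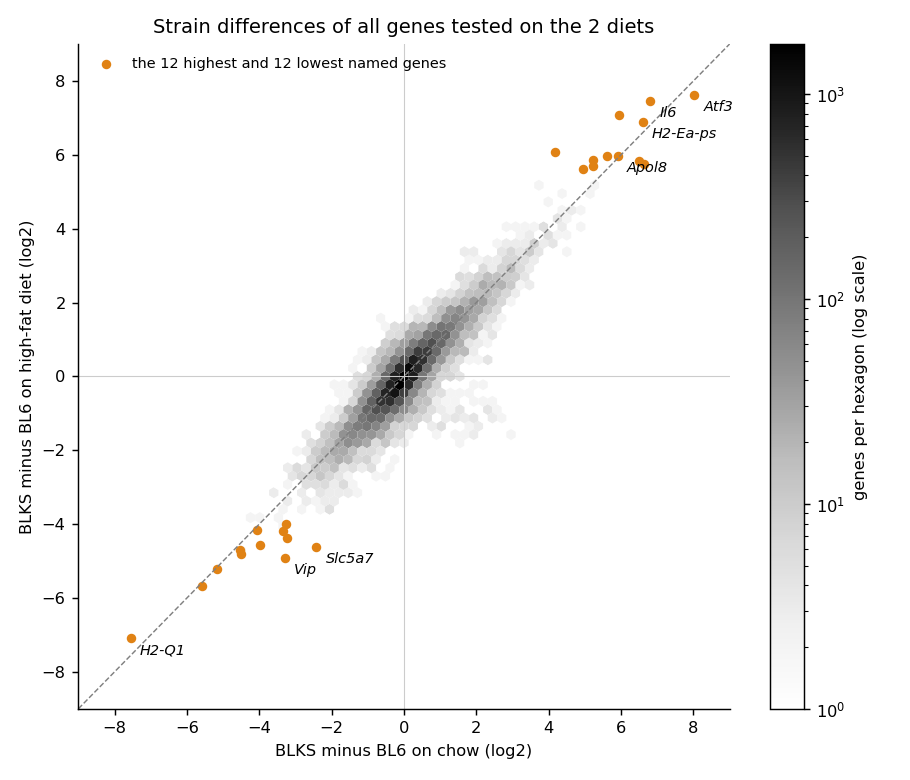
Strain difference (BLKS minus BL6, log2) of each of 22986 genes on the high-fat diet (y axis) against that on chow (x axis), as hexagons shaded by the number of genes on a log scale; orange points are the 12 highest and 12 lowest named genes and the dashed line marks equal differences. Most named genes lie near the line. Among those further off, Slc5a7 (-4.62 against -2.42), Vip (-4.91 against -3.30) and Tlr12 (-4.37 against -3.22) lie below it. Ctrc (6.09 against 4.18) and Cxcl1 (7.08 against 5.95) lie above it.

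No gene was called for a strain difference that itself differed between the high-fat diet and chow in limma (0 of 22986, 0%), although 1946 had an unadjusted p under 0.05. The smallest adjusted p, 0.082, was shared by Cdkn2c, an inhibitor of cyclin-dependent kinases (-1.10 on the high-fat diet, -0.23 on chow), Akap8, a nuclear anchoring protein (0.22 and -0.41), and the unnamed probe A_55_P2092282 (0.51 and -0.44). Against pioglitazone 2 genes were called (0.0087%), 1 higher (0.00435%) and 1 lower (0.00435%). The strain difference of Lrtm2, a leucine-rich repeat membrane protein, was 2.51 on the high-fat diet and 1.32 with pioglitazone, and that of A030001D16Rik was -0.98 and 3.40. Neither call was held by every set of arrays: 0 genes passed without BL6 mouse 1, BL6 mouse 2, BLKS mouse 1, BLKS mouse 3 or BLKS mouse 4, 4 passed without BL6 mouse 4 and 6 without BLKS mouse 2.

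By position the calls were spread over the genome. Among 398 windows of 5 Mb with at least 20 tested genes, 16.4% to 76% of genes were called, with a median of 50%. Calls of at least 2 on the log2 scale made up 4.29% of all genes and 6.28% of those on chromosome 17, which carries the H2 genes. Chromosome 5 from 90 to 95 Mb (mm9) held 8 such genes of 52, with Afm on the lower side and the neighbours Cxcl1, Cxcl2, Cxcl3, Cxcl5 and Areg, a ligand of the EGF receptor, on the higher. Chromosome 11 from 80 to 85 Mb held 10 of 69, with Ccl2, Ccl3, Ccl4, Ccl7 and Ccl12 among them.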

How the data were processed

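Total RNA of islets was measured on 1-colour 60-base Agilent arrays, 24 in 6 groups of 4 by their titles. The authors deposited scanner files whose processed signal is a background-corrected intensity, made with Agilent Feature Extraction 10.7.3.1 per the file headers. The deposited value table holds a ratio, each spot's signal over the array median (column median 1), with which the scanner values matched to a relative deviation of at most 5.8e-06. Probe positions are mm9, per the file headers.

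From the deposited intensity, log2 values were taken and each array's 75th percentile subtracted (that percentile was a signal of 217.6 to 402.4). Of 55681 probes, 55 with outlier flags were left out, 0 spots were saturated, and 32770 well above background on at least 4 of 24 arrays were kept. The brightest kept probe stood for each of 22986 gene names, of which 6655 had several. Gene names are those of the array, and 27235 probes (48.9%) matched a RefSeq accession, 2838 of them with another current symbol. Precision is limited by 4 arrays a group.

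limma 3.58.1 (R 4.3.3) fitted 6 group means to all 24 arrays, and calls are Benjamini-Hochberg adjusted p under 0.05 over all genes. The procedure was tested on simulated data. Named genes are the 12 highest and 12 lowest non-overlapping calls with gene symbols, up to 4 members of smallest p per list, the 5 of smallest p per interaction, a fixed set of islet genes, and the 5 brightest seen in one strain alone. Further list members were named after their values were seen, and some genes that the rule names are not reported here. The gene lists and the comparison itself were chosen with earlier results of these data known. Alternatives changed background correction, normalization, the filter on dim probes, the probe for a gene, the arrays fitted, slide, mouse number and marker covariates.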

Additional observations from a re-analysis of the deposited data

Results flagged for a closer look

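Among 306 sets of 4 readings, 1 gene in 1 strain each, 15 had 1 mouse far from the other 3, where chance gives about 1 in 20, and 5 of the 15 were BLKS mouse 3. In that mouse Art4 read -4.58 (others -6.90 to -6.62), Mbp 5.26 (5.77 to 5.81), Itpr2 1.83 (1.43 to 1.47), Rbp7 0.28 (-0.09 to -0.04) and Bhlhe40 2.93 (2.17 to 2.26). In BLKS mouse 2, Slc5a7 read -4.55 (others -6.97 to -6.72) and Cox5b 4.72 (4.48 to 4.50). Herpud1 read 6.63 in BLKS mouse 1 (others 6.82 to 6.84), and Cxcl2 read -0.63 in BLKS mouse 4 (others 0.06 to 0.20).

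In BL6 mouse 1, Fcgr1 read -2.74 (others -3.21 to -3.17) and Cdkn2c -0.08 (0.04 to 0.06). In BL6 mouse 2, Thy1 read 0.16 (others 2.09 to 2.38) and Sytl2 -3.59 (-4.45 to -4.42). In BL6 mouse 4, Cthrc1 read -2.32 (others -1.50 to -1.41) and Lck, a T-cell kinase, 2.06 (-1.08 to -0.73).

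The strain difference on the high-fat diet minus that with pioglitazone passed the interaction test in limma for A030001D16Rik (-4.38, adjusted p = 0.037) and Lrtm2 (1.19, adjusted p = 0.037).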

How the results depend on the processing

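For genes differing between BLKS and BL6 islets on high-fat diet, the count of 11464 lay between 9322 (only the 8 arrays) and 12410 (lymphocyte markers as covariate) except with slide as a fixed block, which called 4315, 54.6% of them higher in place of 46.6%. Leaving out 1 array gave 10460 to 11101, and the 2 arrays of highest lymphocyte score, chosen after seeing the data, 10274. Without a filter on dim probes the median of all genes was -0.19 in place of -0.05. The fit with slide as a fixed block is the slide-adjusted model. The high-fat difference enters it with a minus sign, so it cannot check these counts. The cause of the other shifts was not tested.

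For the strain by diet interaction, high-fat against chow, 0 calls became 11 with normexp then quantile, 2 with quantile and 4 with the replicate block, and 0 to 0 with 1 array left out. For the strain by pioglitazone interaction on high-fat diet, 2 calls became 1 with the authors' value table, with probes above background on all 24 arrays or with acinar markers as covariate, 10 with the replicate block, 0 without a filter or without the 2 arrays of highest lymphocyte score, and 0 to 6 with 1 array left out. Mouse numbers did not pair the samples: same-numbered mice correlated at 0.24, 0.26, -0.28 and -0.26, and the replicate block called 11681 genes.

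Signs turned with slide as a fixed block for Vip (2.84), Slc5a7 (3.77), Scg5 (0.053), Rbp4 (-0.199), Ghsr (-0.449), Pyy (0.169), Cela1 (-0.273), Gp2 (-0.409), Emcn (0.017), Thy1 (1.5), S100b (0.845), Lck (-0.269), Fcer2a (-0.002), Cdkn2c (0.202), Reg1 (-1.344), A_55_P2092282 (-0.873), Akap8 (-0.649), A030001D16Rik (6.954), Slc25a32 (0.258), Stac (2.119), 3110047P20Rik (3.179), Ins2 (0.011), Ppy (0.672), Pdx1 (-0.148), Slc2a2 (0.144) and Atp2a2 (0.450). Without the 2 arrays of highest lymphocyte score they turned for Cela1 (-0.515), Gp2 (-0.240), Reg3d (-0.279), Reg1 (-0.276), Ppy (0.091) and Atp2a2 (0.039). They turned with the acinar covariate for Reg1 (-0.095), with quantile for Ins1 (0.000), Ins2 (0.028), Gcg (0.062) and Ppy (0.009), with normexp then quantile for Ins1 (0.000) and Gcg (0.029), and for Atp2a2 with the value table (0.036) and the mean of probes (0.199). With 1 array left out, Ppy ranged from -0.619 to 0.154 and Atp2a2 from -0.073 to 0.083, and Mafa turned to 0.020 without BLKS mouse 3. With slide as a fixed block the high-fat difference enters with a minus sign, so a turned sign there is no check of it. The cause of the other turns was not tested. Of 134 genes called under the naming rule, 44 were not called with slide as a fixed block and 4 were lost when 1 array was left out.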

Other observations

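The genes given here lie outside the naming rule and were chosen after their values were seen. The fibrinogen chain gene Fgb read -2.63, -2.47, -5.05 and -2.77 in BL6 and 2.48, 1.95, 0.25 and 1.71 in BLKS, 28.3-fold higher, and Fgg was at least 16.9-fold higher. The urokinase receptor gene Plaur (4.42) and the protease genes Adamts4 (4.57) and Mmp13 (4.40) were higher in BLKS. The keratin genes Krt23 (5.17) and Krt17 (4.54) and the tubulin gene Tubb6 (4.62) were higher as well. The heat shock gene Hspa1a read 1.58, 1.46, -1.19 and 0.23 against 2.70, 2.84, 5.17 and 4.45 (3.27), and Hspb1 (2.74) and the stress cytokine gene Gdf15 (3.05) were higher.

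Trh, the gene of thyrotropin-releasing hormone, and Foxa1, a forkhead factor, were at least 29.0-fold and 29.1-fold higher in BLKS. The nuclear long non-coding RNA Malat1 read 1.70, 1.21, 0.61 and 1.08 against 4.73, 4.30, 4.53 and 4.36, a difference of 3.33. On chow it was 1.68, and the difference between the diets did not pass the test in limma (adjusted p = 0.13). In the model of strain, diet and slide Malat1 differed by 1.49. Lyrm2, a small mitochondrial LYR-motif protein gene, read 2.69, 2.65, 2.56 and 2.64 against -0.93, -0.86, -0.96 and -0.87 (-3.54).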
